A study of Mus musculus with 463 samples.

Results

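Cells of the mouse embryo at E10.5 that were sorted from the dorsal Pdx1-expressing region into a Pdx1-high and a Pdx1-low gate were compared by single-cell RNA-seq. All came from embryos carrying a Pdx1-GFP transgene, and the gate was set on GFP. A difference in Pdx1 RNA between the gates is therefore a check of the sort. The labels give no strain, genotype at other loci, treatment or culture. The cells were chosen by the gate in their label, and the first number after the gate was taken as the set. This gave 68 of the 447 single cells in the series, 28 Pdx1-high and 40 Pdx1-low. What a set stands for (1 embryo, 1 litter, 1 sort or 1 plate) is not stated in the labels. The p-values therefore reflect variation among numbered sets, and that variation may be technical. The spread was estimated in 1 model of 38 sets in 12 single-cell groups, not in the 2 dorsal groups alone. The other groups included ventral and liver cells at E10.5 and cells of other embryonic days, so the spread draws on other tissues and stages. Reads were summed per set, and sets of at least 3 cells served as replicates: 5 Pdx1-high sets with 26 cells (sets 1, 2, 4, 5 and 6) and 6 Pdx1-low sets with 40 cells. Pdx1-high set 3 held 2 cells and entered the shares of cells alone. A further 27 dorsal cells at E10.5, sorted as Pdx1+ without a split by level, are described for reference. For comparison, 39 Pdx1-high and 39 Pdx1-low cells of the ventral Pdx1-expressing region at E10.5, from the same transgene, and bulk RNA of dorsal pancreas at E14.5, sorted into Ngn3-GFP-high and Ngn3-GFP-low cells from embryos with an Ngn3-GFP transgene (2 libraries each), were used.

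The pancreas forms from a dorsal and a ventral outgrowth of the foregut endoderm. Its multipotent progenitors carry the transcription factors Pdx1, Sox9 and Ptf1a, divide, and are held in that state in part by Notch signalling through Hes1. Cells that switch on Neurog3 leave the cycle and pass through a cascade that includes Neurod1, Pax6 and Isl1, and the first endocrine cells to appear in the mouse dorsal bud make glucagon, the hormone of alpha cells. Endocrine cells store peptide hormones in dense-core granules, cut them from precursors with the convertases Pcsk1 and Pcsk2, and release them through a regulated exocytosis machinery shared with neurons.

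The gates gave cells of similar depth. Pdx1-high cells held 580338 to 1412510 reads on genes (median 980160) and Pdx1-low cells 399296 to 1646662 (median 1200823). Set sums ran from 3657378 to 7892502 reads in Pdx1-high and from 2944226 to 24191717 in Pdx1-low, where set 6 alone held 18 of the 40 cells. A median of 9300 genes was detected in Pdx1-high and 9643 in Pdx1-low cells. Thinned to 100000 reads per cell, the sets gave 7256 ± 379.1 genes (SD, n = 5) and 7735 ± 287.5 genes (SD, n = 6), a difference that did not pass a two-sided exact permutation test over sets (p = 0.0519, adjusted p = 0.0779 over 3 per-cell measures, smallest p possible 0.00433). Reads on genes per spike-in read, a measure of RNA per cell, were 24.22 ± 13.7 (SD, n = 5) and 31.97 ± 17.17 (SD, n = 6), with exact permutation p = 0.42 (adjusted p = 0.42). Below, levels of sets are CPM, read counts scaled to a common library total that was adjusted by trimmed means (TMM), levels of single cells are plain CPM, and log2 differences are Pdx1-high minus Pdx1-low with adjusted p from edgeR's quasi-likelihood test.

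Of 40824 genes, 19285 passed the filter on low counts and were tested. Of these, 2075 (10.8%) were higher in Pdx1-high and 1897 (9.84%) were higher in Pdx1-low at an adjusted p of at most 0.05, with a median log2 difference over all genes of -0.02. These 2 shares are the background for every gene list below. The lists were chosen with earlier results of these data known, so their counts are descriptions and were not tested against the background. The labels number the samples of sets 1 to 3 and of sets 4 to 6 in separate runs. Within sets 1 to 3 the test called 593 genes higher in Pdx1-high and 563 higher in Pdx1-low, and within sets 4 to 6 it called 142 and 349.

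The 4 genes that mark the gates separated the sets fully. Pdx1, the factor that the pancreas cannot form without, stood at 175.2, 207.9, 221.6, 158.8 and 264.6 CPM in the Pdx1-high sets, and at 0, 10.09 and 45.13 CPM as lowest, median and highest of the Pdx1-low sets. All 5 Pdx1-high sets lay above all 6 Pdx1-low sets, a log2 difference of 3.91 (SE 0.72, adjusted p = 0.000242), or 15.0-fold. Sox9, a factor of the progenitor epithelium, stood at 1011, 628.2, 634.8, 677.2 and 1066 CPM in Pdx1-high and between 0 and 144.3 CPM in Pdx1-low, again without overlap (4.67, SE 0.85, adjusted p = 0.000203). The highest Pdx1-low value of both genes came from set 4. In GRCm38 with the GENCODE vM21 annotation, Sox9 lies on chromosome 11 (112782224 to 112787760), Isl1 on chromosome 13 (116298281 to 116309689) and Neurod1 on chromosome 2 (79452521 to 79456751).

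Gcg, the glucagon gene, stood at 6.534, 2.685, 4.284, 104 and 55.48 CPM in Pdx1-high and at 22486, 41709 and 48964 CPM as lowest, median and highest in Pdx1-low. Every Pdx1-low set lay far above every Pdx1-high set, a log2 difference of -10.16 (SE 1.73, adjusted p = 9.69e-05). Isl1, a LIM homeodomain factor of islet cells, stood at 0.1188, 1.726, 0.238, 1.145 and 0.917 CPM in Pdx1-high and between 648.1 and 1405 CPM in Pdx1-low (-10.33, SE 1.33, adjusted p = 2.62e-06). Within sets 1 to 3 all 4 genes passed, with log2 differences of 4.81 for Pdx1, 6.36 for Sox9, -12.84 for Gcg and -10.26 for Isl1. Within sets 4 to 6, Gcg (-9.70) and Isl1 (-10.43) passed, while Pdx1 (3.34, adjusted p = 0.0595) and Sox9 (3.84, adjusted p = 0.103) did not.

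**Figure D1:**
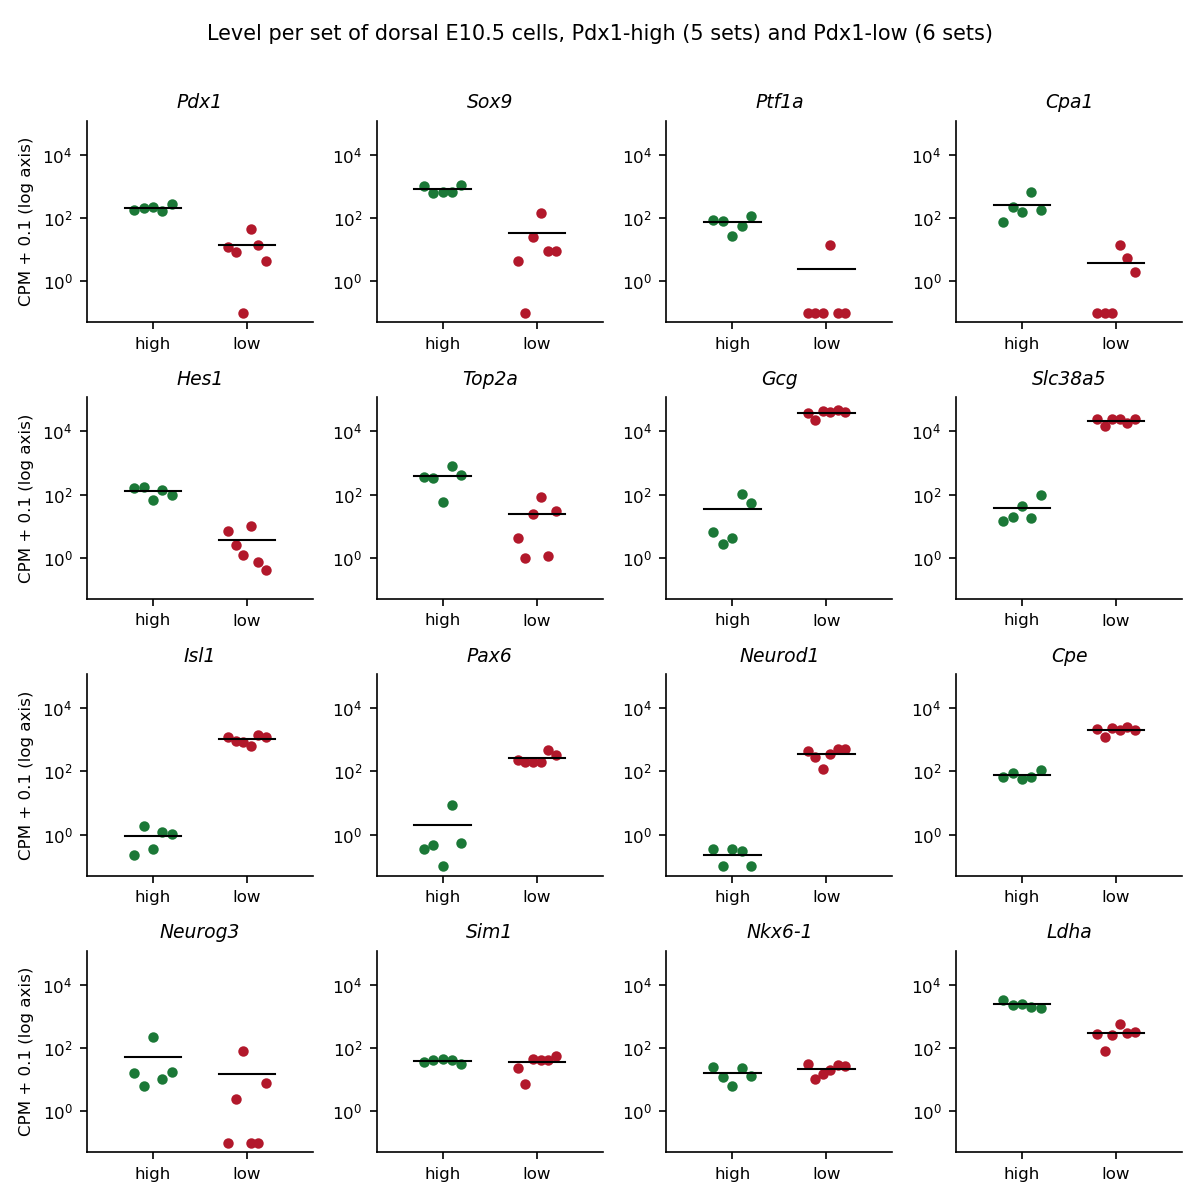
CPM + 0.1 per set (log axis) of 16 genes, among them genes that mark progenitors, endocrine cells and the cell cycle, with 1 point per set of 3 or more cells and a bar at the group mean. Pdx1 lay between 158.8 and 264.6 CPM in the 5 Pdx1-high sets and at 45.13 CPM or less in the 6 Pdx1-low sets, while Gcg and Isl1 were separated the other way.

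Single cells were split in the same way. Pdx1 reached 10 CPM in 28 of 28 Pdx1-high cells (100%, exact 95% Clopper-Pearson interval 87.7 to 100%) and in 6 of 40 Pdx1-low cells (15.0%, 5.71 to 29.8%). Isl1 reached it in 0 of 28 and in 39 of 40 cells, and for the count of 0 the exact interval reached 12.3%, against 10.7% by the limit of 3 cells. With Sox9 at 100 CPM and Gcg at 1000 CPM as limits, 28 of 28 Pdx1-high cells had Sox9 alone and 38 of 40 Pdx1-low cells had Gcg alone. No cell of either gate had both at these limits. At 10 CPM, Sox9 was found in 28 of 28 Pdx1-high cells and in 12 of 40 Pdx1-low cells (30.0%, 16.6 to 46.5%). Cells with high Gcg were among the latter, such as cell 2 of set 3 with 73.34 CPM of Sox9 and 67504 CPM of Gcg. Intervals of shares cover counting error only.

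Low levels of Gcg in Pdx1-high cells did not stand above those of other sorted cells. Gcg reached 10 CPM in 12 of 28 Pdx1-high cells (42.9%, 24.5 to 62.8%), with a median of 8.136 CPM. In ventral cells, whose sets gave a Gcg difference of 0.22 (adjusted p = 1.0) between gates, it reached 10 CPM in 20 of 39 Pdx1-high (51.3%) and 21 of 39 Pdx1-low cells (53.8%), with medians of 11.16 and 12.82 CPM. The dorsal Pdx1-high share lay below both, so no expression was read from it. It varied by set, with 5 of 5, 3 of 3 and 2 of 2 cells in sets 5, 6 and 3, 2 of 9 in set 1 and 0 of 9 in sets 2 and 4.

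**Figure D2:**
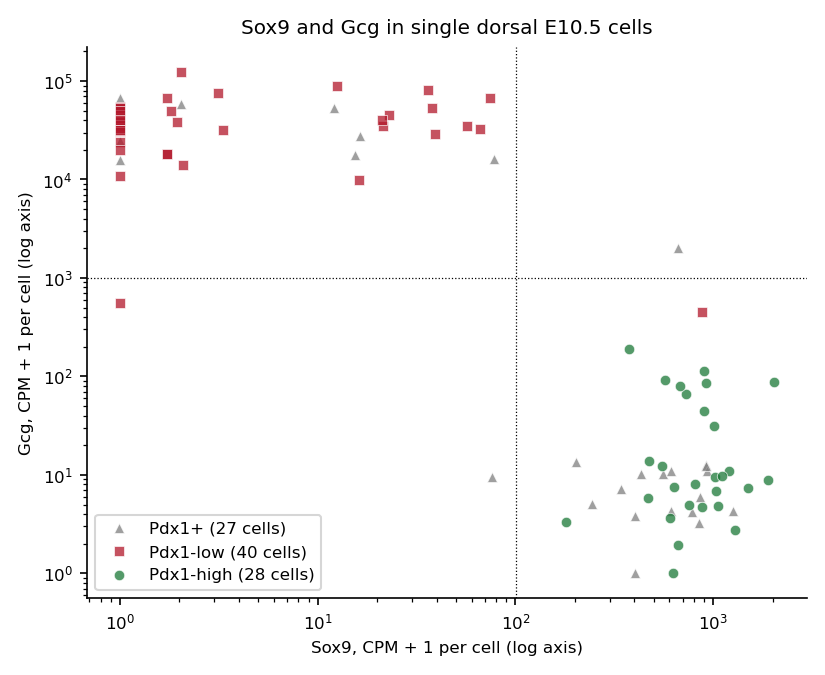
Sox9 against Gcg in single dorsal E10.5 cells, in CPM + 1 on log axes, with 1 point per cell coloured by gate (27 Pdx1+ cells in grey) and dotted lines at 100 CPM of Sox9 and 1000 CPM of Gcg. The 28 Pdx1-high cells lie in the Sox9 corner and 38 of the 40 Pdx1-low cells in the Gcg corner, with 1 Pdx1-low cell among the Pdx1-high cells and 1 low in both genes.

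The 2 Pdx1-low cells outside the Gcg corner differed from each other. The first, from set 4, carried the profile of the other gate, with 287 CPM of Pdx1, 879.8 of Sox9, 86.25 of Ptf1a and 180.3 of Mki67, against 4.705 CPM of Isl1 and 0 of Chga. It still had 448.5 CPM of Gcg and 29.8 CPM of Neurod1, and it alone gave Ptf1a at 10 CPM among the 40 Pdx1-low cells. The second, from set 2, had 553.8 CPM of Gcg and no Sox9 or Pdx1 read, but 24167 CPM of Slc38a5, 1647 of Isl1 and 1699 of Chga. Ins1 was at 2344, Ghrl at 2719 and Iapp at 1363 CPM in it, and it was the 1 Pdx1-low cell in which these hormone genes exceeded Gcg. Without the first cell, 4178 genes were called in place of 3972, and 111 of 111 named genes kept their call.

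Progenitor genes were higher in Pdx1-high. Of 20 tested factors and early products, 11 passed upward (Pdx1, Sox9, Ptf1a, Nkx6-2, Onecut1, Hhex, Nr5a2, Rbpjl, Cpa1, Myc and Hes1) and 0 downward, with a median log2 difference of 3.34. Ptf1a, which directs the acinar lineage later, stood at 82.92, 80.56, 25.7, 54.59 and 116.2 CPM in Pdx1-high and at 0 in every Pdx1-low set except set 4 with 13.56 CPM (5.07, SE 1.23, adjusted p = 0.00401). Cpa1, a digestive enzyme gene that marks tip progenitors, ranged from 74.36 to 653.7 CPM in Pdx1-high and from 0 to 13.81 CPM in Pdx1-low (6.23, SE 1.43, adjusted p = 0.00225). Nr5a2 (5.10, adjusted p = 2.57e-05), a nuclear receptor, and Hhex (5.93, adjusted p = 0.000245), a homeobox factor of foregut buds, were likewise separated without overlap. The Rbpjl call, a partner of Ptf1a, did not hold when any of 7 single sets was left out. Within sets 4 to 6 alone, 1 of the 20 passed.

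Other progenitor factors did not pass. Prox1 stood at 292.6 ± 70.19 CPM in Pdx1-high (SD, n = 5) and 233.6 ± 79.77 CPM in Pdx1-low (SD, n = 6), a log2 difference of 0.32 (SE 0.22, adjusted p = 0.309). Foxa2, a foregut endoderm factor, stood at 146.6 ± 47.8 and 152.2 ± 41.22 CPM (-0.05, SE 0.27, adjusted p = 0.956). Nkx6-1, a factor of progenitors and of beta cells, reached 10 CPM in 18 of 28 and in 18 of 40 cells, with a log2 difference of -0.47 (SE 0.74, adjusted p = 0.72). Mnx1, needed for the dorsal bud, stood at 48.47, 39.89, 27.13, 5.535 and 18.11 CPM in Pdx1-high against 0 to 12.81 CPM in Pdx1-low, and its difference of 2.60 did not pass (SE 1.12, adjusted p = 0.0938). Sim1 was at 38.9 ± 5.327 CPM (SD, n = 5) and 36.12 ± 17.38 CPM (SD, n = 6), and it reached 10 CPM in 20 of 28 and 29 of 40 dorsal cells but in 1 of 39 ventral Pdx1-high cells.

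Of 19 tested genes of the endocrine cascade, 11 were higher in Pdx1-low, 2 (Sox4 and Sox11) were higher in Pdx1-high, 6 did not pass, and the median log2 difference was -3.42. Neurod1, the direct follower of Neurog3, had 0 to 0.238 CPM in the Pdx1-high sets, 4 reads in all, and 429.8, 277.2, 122.1, 352.9, 501.6 and 492.8 CPM in the Pdx1-low sets (-11.20, SE 0.82, adjusted p = 1.67e-09). No Pdx1-high cell reached 10 CPM of it and 40 of 40 Pdx1-low cells did. Pax6 (-7.13, adjusted p = 9.01e-07), St18 (-8.74, adjusted p = 3.1e-05) and Fev (2 reads in all Pdx1-high sets, adjusted p = 0.000168), all factors of the differentiating endocrine cell, went the same way. Rfx6 (-1.84, adjusted p = 0.184), Insm1 (-0.97, adjusted p = 0.603) and Nkx2-2 (0.02, adjusted p = 1.0) did not pass. Sox11 stood at 342.6 ± 115.7 CPM in Pdx1-high (SD, n = 5) and 28.95 ± 33.53 CPM in Pdx1-low (SD, n = 6), a log2 difference of 3.57 (SE 0.55, adjusted p = 2.98e-05). The Btbd17 call, at an adjusted p of 0.05, was lost without any of 9 single sets.

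Neurog3 itself did not separate the gates. It stood at 15.8, 6.138, 216.6, 10.31 and 17.65 CPM in the Pdx1-high sets and at 0, 2.439, 81.79, 0, 0 and 7.919 CPM in the Pdx1-low sets, and the groups overlapped (1.79, SE 1.48, adjusted p = 0.413). Single sets decided its size and sign, since the log2 difference was -0.35 without Pdx1-high set 4 and 4.60 without Pdx1-low set 3. It reached 10 CPM in 15 of 28 Pdx1-high cells (53.6%, 33.9 to 72.5%) and in 2 of 40 Pdx1-low cells (5.0%, 0.611 to 16.9%). In ventral cells the shares were 6 of 39 Pdx1-high (15.4%) and 0 of 39 Pdx1-low.

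The 15 Pdx1-high cells with Neurog3 kept the progenitor profile. All 15 had Sox9 (median 914.2 CPM), Pdx1 (median 207.7 CPM) and Hes1 (median 122.3 CPM) at 10 CPM, 14 had Mki67, and 0 had Neurod1 or Fev. The 13 Pdx1-high cells without Neurog3 had medians of 731 CPM of Sox9, 240.6 of Pdx1 and 147.6 of Hes1. The level in most of the 15 was low, with a median of 26.92 CPM. The highest cell, from set 4, had 824.9 CPM of Neurog3, together with the highest Cdkn1a (1437 CPM), Onecut2 (1097 CPM) and Dll3 (63.3 CPM) of the 28 cells, 0 Mki67 and 0 Neurod1. This cell was picked after its values were seen. Cdkn1a, the cell cycle inhibitor p21, stood at 545.5 CPM in that set and at 8.631 to 53.93 CPM in the other Pdx1-high sets, against 207.8 to 443.9 CPM in Pdx1-low (-1.15, SE 0.84, adjusted p = 0.34). The call of Onecut2 (2.85, adjusted p = 0.00741) was lost without set 4.

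The alpha cell list showed 11 of 12 tested genes higher in Pdx1-low and 1, Gc, higher in Pdx1-high, with a median log2 difference of -8.95. Slc38a5, an amino acid transporter of alpha cells, stood at 14.14, 19.18, 42.84, 17.75 and 96.98 CPM in Pdx1-high and between 14391 and 25199 CPM in Pdx1-low, a log2 difference of -9.17 (SE 0.99, adjusted p = 1.37e-07). Irx2, an alpha cell homeobox gene, had 3 reads against 9191, a ratio of 1757 (counting interval 601 to 8520). Irx1 had no read in any Pdx1-high set, and its level of 5.691 ± 1.44 CPM in Pdx1-low (SD, n = 6) was at least 54.9-fold higher than 3 reads over the Pdx1-high group allow. Gc, a vitamin D binding protein that adult alpha cells also make, stood at 96.46 to 221.0 CPM in Pdx1-high and 0 to 32.55 CPM in Pdx1-low (3.54, SE 0.66, adjusted p = 0.000257).

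Of 15 tested peptide hormone genes, 14 were higher in Pdx1-low, 0 were higher in Pdx1-high, and the median log2 difference was -8.92. Pyy, the gut and islet hormone peptide YY, stood at 1.069 to 23.32 CPM in Pdx1-high and at 1112 to 6469 CPM in Pdx1-low (-8.87, SE 1.34, adjusted p = 2.13e-05). Ghrl, the ghrelin gene, stood at 0.2293 to 11.51 and 348.0 to 1998 CPM (-7.75, adjusted p = 5.31e-05), and Iapp, the amyloid peptide released with insulin, at 0.9503 to 5.236 and 406.7 to 1636 CPM (-8.92, adjusted p = 3.68e-05). Gal, the neuropeptide galanin, had no read in Pdx1-high and 7398 in Pdx1-low, at least 1414-fold higher. Cck, cholecystokinin, had 4 reads in Pdx1-high and 48.48 to 433.3 CPM in Pdx1-low (-10.66, adjusted p = 3.77e-08), and Cartpt, a neuropeptide of islets and brain, had 5 reads and 269.7 to 2625 CPM (-12.23, adjusted p = 1.17e-07).

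Of the insulin genes, Ins1 passed the test and Ins2 did not. Ins1 stood at 0.1188, 6.521, 14.99, 0.3817 and 0 CPM in Pdx1-high and at 188.0, 696.4, 1193, 2365, 555.8 and 509.0 CPM in Pdx1-low, without overlap (-7.76, SE 1.81, adjusted p = 0.00259). Ins2 overlapped between the gates and did not pass (-1.85, SE 1.85, adjusted p = 0.518). Ins1 and Ins2 are close copies, so the split of reads between them is uncertain. Ins2 reached 10 CPM in 8 of 28 Pdx1-high and 18 of 40 Pdx1-low cells, against 10 of 39 and 9 of 39 ventral cells.

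Per length of gene, the hormone levels in Pdx1-low ran over several orders. Gcg stood at 36225 ± 8435 CPM per kilobase over the 6 sets, Pyy at 6554 ± 3257, Ghrl at 1975 ± 1302, Iapp at 1177 ± 587.9, Cartpt at 1065 ± 1021 and Ins1 at 903.4 ± 768.6. The last 4 did not differ beyond their spread. Gal (213.1 ± 79.8) and Sct, secretin (271.6 ± 82.8), lay lower, then Ppy (91.0), Gip (88.98) and Sst (78.66), each with an SD above its mean. Gcg took a median of 3.94% of all reads of a Pdx1-low cell (0.0449 to 12.3%) and Slc38a5 2.43%.

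Single Pdx1-low cells carried many hormone RNAs at once. Of the 15 tested genes, a Pdx1-low cell had a median of 10 at 10 CPM (2 to 13), and 33 of 40 cells had 8 or more. At 100 CPM the median was 7. Pdx1-high cells had a median of 1 (0 to 5), and ventral Pdx1-high cells likewise 1 (0 to 4). Pyy reached 10 CPM in 40 of 40 Pdx1-low cells, Cck in 38, Sct in 37, Gal and Iapp in 35, Ghrl in 29, Cartpt in 28 and Ins1 in 27. Sst and Gip were concentrated instead, with 63.6% and 73.0% of their summed CPM in a single cell.

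**Figure D3:**
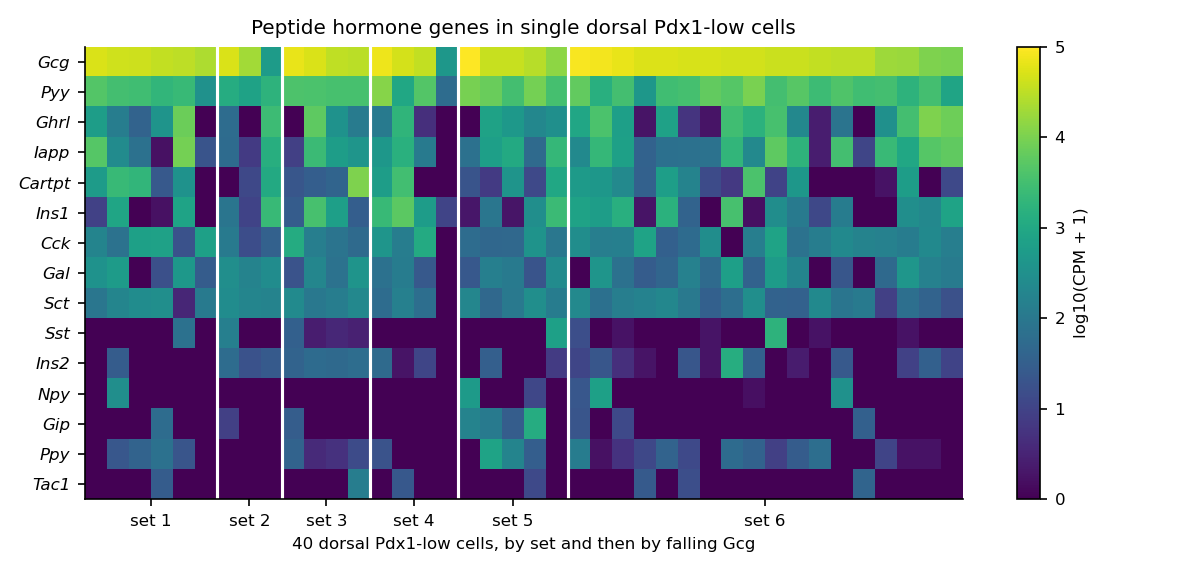
Level of the 15 tested hormone genes (rows) in each of the 40 dorsal Pdx1-low cells (columns, ordered by set and then by falling Gcg), coloured by log10(CPM + 1), with white lines between sets. Gcg and Pyy are bright in nearly every column, most cells show several other hormone genes as well, and Sst and Gip stand out in single cells.

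The granule machinery accompanied the hormones. Of 28 tested granule and exocytosis genes, 27 were higher in Pdx1-low, 0 were higher in Pdx1-high and 1, Cadps, did not pass (-4.18, adjusted p = 0.0765), with a median log2 difference of -7.14. Pcsk2 stood at 0.4752 to 4.581 CPM in Pdx1-high and 705.6 to 1359 CPM in Pdx1-low (-9.43, SE 1.11, adjusted p = 6.32e-07). Pcsk1 had 1 read against 10409, a ratio of 5970 (counting interval 1071 to 235789). The granule matrix proteins Chga (-7.68, adjusted p = 3.92e-05) and Chgb (-8.39, adjusted p = 2.24e-05) showed the same direction. Cpe, the carboxypeptidase that trims prohormones, was present in both gates, at 65.34, 85.74, 57.36, 64.32 and 109.6 CPM in Pdx1-high and 1204 to 2593 CPM in Pdx1-low (-4.75, SE 0.47, adjusted p = 3.77e-08). Within sets 1 to 3 and within sets 4 to 6, 22 of the 28 were higher in Pdx1-low in each.

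Excitability genes moved in part. Of 17 tested ion channel genes, 8 were higher in Pdx1-low and 0 in Pdx1-high, with a median log2 difference of -2.60. Abcc8, the sulfonylurea receptor subunit of the KATP channel, stood at 53.13 to 156.4 CPM in Pdx1-high and 218.5 to 948.8 CPM in Pdx1-low (-2.81, adjusted p = 0.0132), while its pore partner Kcnj11 did not pass (-1.47, adjusted p = 0.295). Cacna1c, an L-type calcium channel, passed at -6.72 (adjusted p = 0.000968). Of 14 tested beta cell genes, 7 were higher in Pdx1-low, among them the zinc transporter Slc30a8 with no read in Pdx1-high (at least 320-fold), and 2 were higher in Pdx1-high, the glucose transporter Slc2a2 (7.09, adjusted p = 9.6e-05) and Nnat (2.15, SE 0.35, adjusted p = 4.53e-05).

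Sequences just before the start of granule and hormone genes are shown because these genes differed together between the gates. The 150 bases before the RefSeq start of 4 of them (GRCm38.p6, 5′ to 3′ along the gene) are printed with matches to the cyclic AMP response element TGACGTCA in capitals.
Chgb (chr2:132781492-132781641, forward strand): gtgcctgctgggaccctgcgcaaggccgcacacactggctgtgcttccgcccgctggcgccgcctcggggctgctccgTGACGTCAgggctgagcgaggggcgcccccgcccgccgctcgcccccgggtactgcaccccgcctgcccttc
Pcsk1 (chr13:75089707-75089856, forward strand): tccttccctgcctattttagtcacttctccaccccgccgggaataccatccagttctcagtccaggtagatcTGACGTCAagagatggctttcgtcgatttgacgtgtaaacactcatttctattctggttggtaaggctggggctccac
Scg2 (chr1:79440027-79440176, reverse strand): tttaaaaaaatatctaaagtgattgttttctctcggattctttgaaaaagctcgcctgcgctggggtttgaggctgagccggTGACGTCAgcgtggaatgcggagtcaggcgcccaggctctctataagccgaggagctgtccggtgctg
Cartpt (chr13:99900684-99900833, reverse strand): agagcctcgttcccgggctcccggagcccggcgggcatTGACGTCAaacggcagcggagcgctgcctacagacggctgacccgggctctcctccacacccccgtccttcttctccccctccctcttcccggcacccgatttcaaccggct
In 250 bases before the start, on both strands, TGACGTCA lay in 3 of 20 granule promoters (Chgb, Scg2 and Pcsk1) and 2 of 15 hormone promoters (Sst and Cartpt), against 2.84% of the 12679 promoters of tested genes. It also lay in 2 of 14 S phase promoters (Mcm5 and Dtl), a list higher in the other gate, and in 0 of 8 alpha cell promoters. It begins 72, 78, 68 and 112 bases upstream in Chgb, Pcsk1, Scg2 and Cartpt. For Gcg, the gene with the most reads in Pdx1-low, capitals mark CAGATG, a letter form of the E-box that basic helix-loop-helix factors bind.
Gcg (chr2:62483654-62483803, reverse strand): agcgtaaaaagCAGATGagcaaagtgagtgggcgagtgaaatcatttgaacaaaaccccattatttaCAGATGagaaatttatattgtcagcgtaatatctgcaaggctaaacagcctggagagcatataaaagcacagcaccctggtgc
CAGATG lay in 7 of 15 hormone promoters and 5 of 8 alpha cell promoters, against 1 of 20 granule promoters and 12.8% of all, with 2 matches in the Gcg window. Another letter form of the E-box, CAGCTG, was spread otherwise. It lay in 10 of 20 granule promoters, 4 of 15 hormone promoters and 0 of 8 alpha cell promoters, against 15.1% of all. Of 18 motifs searched, those shown were picked after the counts were seen, and a match is a description of letters, not a site.

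Cell cycle genes were higher in Pdx1-high. Of 16 S phase genes 12 passed upward and 0 downward (median 2.18), and of 16 G2 and M phase genes 12 passed upward and 0 downward (median 2.93). Top2a, the topoisomerase of mitotic chromosomes, stood at 348.9, 327.8, 57.6, 828.2 and 420.2 CPM in Pdx1-high and 3.98, 0.9147, 24.56, 86.32, 1.019 and 30.88 CPM in Pdx1-low (4.01, SE 0.72, adjusted p = 0.000168). The groups overlapped through Pdx1-high set 4 and Pdx1-low set 4. Mcm6, part of the replicative helicase, did not overlap, at 209.6 to 731.1 and 50.58 to 182.0 CPM (2.32, SE 0.32, adjusted p = 5.31e-06), nor did Aurkb, a mitotic kinase (5.41, SE 0.80, adjusted p = 1.67e-05). Within sets 4 to 6 no gene of either list passed, and within sets 1 to 3 there passed 10 S phase and 7 G2 and M phase genes. In a fit of the 2 groups alone 10 and 6 passed, and with the set number as a block in that fit 4 and 2.

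Counts of cells gave the same direction. Mki67, a protein of cycling cells, reached 10 CPM in 24 of 28 Pdx1-high cells (85.7%, 67.3 to 96.0%) and 10 of 40 Pdx1-low cells (25.0%, 12.7 to 41.2%). Over sets the shares were 85.56 ± 22.08% (SD, n = 5) and 25.46 ± 31.64% (SD, n = 6), with a two-sided exact permutation p = 0.013 (adjusted p = 0.039). At least 8 of the 16 G2 and M phase genes reached 10 CPM in 20 of 28 Pdx1-high (71.4%) and 6 of 40 Pdx1-low cells (15.0%), and 3 of those 6 were in set 4. For the 16 S phase genes the contrast was weaker, with at least 8 in 28 of 28 Pdx1-high and in 21 of 40 Pdx1-low cells (52.5%). Of the 10 Pdx1-low cells with Mki67, 9 had Gcg at 1000 CPM, with a median of 48625 CPM (18241 to 80370). The other 29 Pdx1-low cells with Gcg at 1000 CPM and without Mki67 had a median of 38810 CPM (9866 to 123347), so the ranges overlapped. The summed level of Mki67 passed only narrowly (2.26, SE 0.81, adjusted p = 0.0446) and the call was lost when any of 9 single sets was left out. Of 12 genes of cell cycle exit, Btg2 (-2.83, SE 0.70, adjusted p = 0.00409) and Ccng1 were higher in Pdx1-low, and Ccng2 was higher in Pdx1-high.

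The promoters of 3 mitotic genes are printed with CCAAT, or ATTGG where it lies on the other strand, in capitals, because mitotic genes differed together and this box recurs in them.
Top2a (chr11:99024190-99024339, reverse strand): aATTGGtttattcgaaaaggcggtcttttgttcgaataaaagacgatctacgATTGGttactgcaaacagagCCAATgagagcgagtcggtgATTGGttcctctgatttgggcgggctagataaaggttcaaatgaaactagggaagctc
Ccnb1 (chr13:100786487-100786636, reverse strand): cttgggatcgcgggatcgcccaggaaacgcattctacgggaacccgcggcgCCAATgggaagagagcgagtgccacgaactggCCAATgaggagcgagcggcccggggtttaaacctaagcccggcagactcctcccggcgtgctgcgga
Cdk1 (chr10:69352913-69353062, reverse strand): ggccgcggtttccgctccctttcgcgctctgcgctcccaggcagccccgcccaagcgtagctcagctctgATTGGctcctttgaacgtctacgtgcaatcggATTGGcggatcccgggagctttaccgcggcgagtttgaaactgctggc
CCAAT lay in 13 of 13 G2 and M phase promoters and 12 of 14 S phase promoters within 250 bases, against 39.5% of all promoters of tested genes. It also lay in 8 of 13 progenitor promoters and in 5 of 8 alpha cell promoters, a list higher in the other gate. Over all called genes it lay in 43.1% of promoters for those higher in Pdx1-high and 39.4% for those higher in Pdx1-low.

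Signalling genes were next. For FGF, 8 of 14 passed upward and 0 downward (median 2.33). The receptor Fgfr2, through which mesenchymal Fgf10 expands the bud, stood at 50.83 to 144.2 CPM in Pdx1-high and 0 to 13.08 CPM in Pdx1-low (4.31, SE 0.71, adjusted p = 6.39e-05). The FGF target Etv4 stood at 198.4, 198.9, 73.3, 124.4 and 206.6 CPM and 0 to 5.638 CPM (6.35, SE 0.76, adjusted p = 8.49e-07), and the feedback inhibitor Spry2 at 212.9 ± 60.11 CPM (SD, n = 5) and 27.27 ± 3.732 CPM (SD, n = 6) (2.96, SE 0.39, adjusted p = 3.75e-06). Within sets 4 to 6, 4 of the 14 passed.

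For Notch, 5 of 16 passed upward and 1 downward (median 2.27). The receptors Notch1 (2.76, adjusted p = 0.000232) and Notch2 (2.81, adjusted p = 3.01e-05), the ligand Jag1 and the effector Hes1 were higher in Pdx1-high. Hes1 stood at 164.4, 172.4, 67.59, 143.3 and 98.35 CPM in Pdx1-high and 0.32 to 10.36 CPM in Pdx1-low (5.21, SE 0.81, adjusted p = 2.98e-05). Dll3, a ligand family member that acts inside the cell, was higher in Pdx1-low, at 103.3 to 393.8 against 0.1909 to 15.47 CPM (-6.05, SE 1.28, adjusted p = 0.00102), while Dll1 did not pass (0.38, adjusted p = 0.814). For Hippo, 6 of 15 passed upward and 0 downward (median 1.94), among them the cofactor Yap1 (2.45, adjusted p = 0.00282) and its partner Tead2 (4.74, adjusted p = 8.26e-05). Its target Cyr61 had no read in Pdx1-low (at least 269-fold).

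Epithelial and matrix genes followed. Of 18 junction genes, 12 were higher in Pdx1-high and 1, the keratin Krt7, was higher in Pdx1-low (median 1.32). Cldn3, a tight junction claudin, stood at 143.3 to 357.7 CPM in Pdx1-high and 0 to 11.59 CPM in Pdx1-low (5.60, SE 0.81, adjusted p = 1.16e-05). Cdh1, E-cadherin, was detected throughout, at 342.1 ± 87.09 CPM (SD, n = 5) and 112.5 ± 50.66 CPM (SD, n = 6) (1.60, adjusted p = 0.00198). Krt7 stood at 33.18 to 97.10 and 272.8 to 568.3 CPM (-2.98, SE 0.51, adjusted p = 0.000108). Of 12 genes of migration and mesenchymal transition, 4 were higher in Pdx1-high (Cdh2, Vim, Fn1 and Mmp14) and 0 in Pdx1-low, with Mmp14, a membrane protease, at 121.5 ± 34.24 and 2.499 ± 4.186 CPM (5.69, adjusted p = 9.01e-07). The factors Snai1, Snai2, Zeb1, Zeb2, Twist1 and Twist2 did not pass. Of 16 basement membrane and integrin genes 5 were higher in Pdx1-high and 1 in Pdx1-low. Of 25 neurite and guidance genes 6 were higher in Pdx1-high and 5 in Pdx1-low.

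Glycolysis genes were higher in Pdx1-high in 11 of 14 cases and lower in 0 (median 1.09). Ldha, which makes lactate, stood at 3259, 2384, 2536, 2032 and 1887 CPM in Pdx1-high and at 268.8, 81.41, 251.7, 557.9, 297.6 and 316.4 CPM in Pdx1-low (3.03, SE 0.40, adjusted p = 3.12e-06), 8.18-fold. Eno1 (1.83, SE 0.25, adjusted p = 4.02e-06) and the glucose transporter Slc2a1 (1.85, SE 0.29, adjusted p = 3.08e-05) did not overlap between the gates either. In the 2 groups alone 7 of the 14 passed. Of 16 folding and stress genes of the endoplasmic reticulum, 3 were higher in Pdx1-high and 1, Manf, was higher in Pdx1-low (median -0.01), and the chaperone Hspa5 stood at 1076 ± 254.0 (SD, n = 5) and 1046 ± 390.0 CPM (SD, n = 6).

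**Figure D4:**
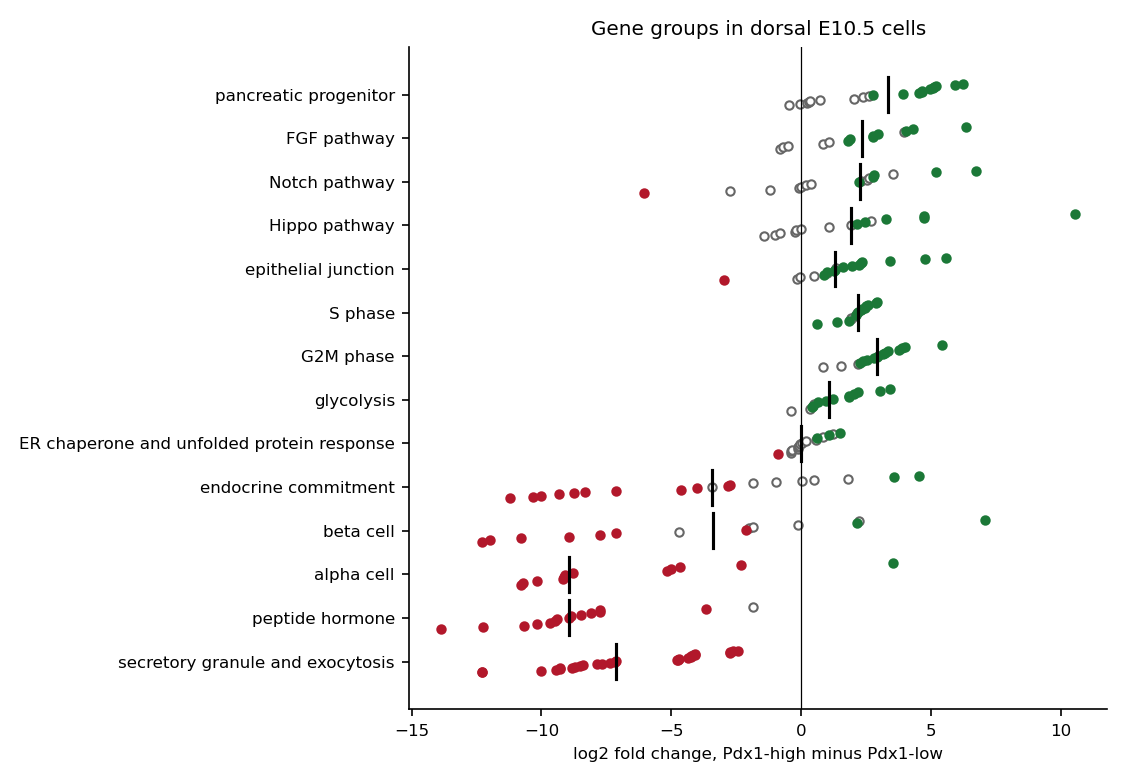
Log2 difference, Pdx1-high minus Pdx1-low (x axis), of each tested gene of 14 gene lists (rows), with a black bar at the list median. Green and red points passed upward and downward at an adjusted p of at most 0.05 and open points did not pass, and the medians run from -8.95 for alpha cell genes to 3.34 for progenitor genes.

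The genes with the largest differences included several of no list. Higher in Pdx1-high were Wnt7b, a secreted Wnt ligand of epithelia, with 17.37 to 112.8 CPM and no read in Pdx1-low (at least 910-fold), Frk, a tyrosine kinase (at least 543-fold), Gjb1, a gap junction connexin (at least 294-fold), Vnn1, Sema5a, Egflam, Frem2, Fam84a and Elf4. Slc6a4, the serotonin transporter, had 4.633, 28.58, 95.91, 18.32 and 79.10 CPM in Pdx1-high and at most 0.1658 CPM in Pdx1-low (9.08, SE 1.26, adjusted p = 6.59e-06). Higher in Pdx1-low, beside Gal, Pcsk1, Cartpt and Neurod1, were Serpind1 (at least 440-fold), Dusp10, Nap1l5, Atp2a3, Cx3cl1 and Cryba2, each with at most 3 reads in Pdx1-high.

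Of 88 tested genes on 10 lists of other cell types, each gene counted once, 6 (6.82%) were higher in Pdx1-high and 13 (14.8%) were higher in Pdx1-low, against 10.8% and 9.84% of all genes. Of 13 mesenchyme markers Col1a2 and Isl1 were higher in Pdx1-low, where Col1a1 had 27 reads in all, and Col1a2 was lost without several single sets. Of 10 endothelial markers Flt1, and of 5 immune markers Csf1r, were higher in Pdx1-low at means of 3.139 and 9.735 CPM, with summed list levels of 18.54 to 49.75 and 0.6098 to 42.54 CPM per Pdx1-low set. No erythroid marker and none of 6 neural crest markers passed. Of 9 cardiac muscle markers 5 were higher in Pdx1-low (Myh7, Myl4, Tnni1, Actc1 and Nppa), with summed levels of 35.51 to 158.1 against 0.476 to 8.316 CPM per set, and Actc1 was carried by set 6 with 83.23 CPM. Hepatoblast markers were mixed. Ttr, which alpha cells also make, Fgb and Serpina1a were higher in Pdx1-low, Fgg and Dlk1 in Pdx1-high, and Alb (adjusted p = 0.153) and Afp (adjusted p = 0.219) did not pass. Of 8 biliary markers Onecut1 and Krt19 were higher in Pdx1-high and Krt7 was higher in Pdx1-low. Of 10 stomach and duodenum markers Onecut2, and of 7 mesothelium markers Lrrn4 and Krt19, were higher in Pdx1-high. The part of these markers in the results was not tested.

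The same gate on the ventral side gave other cells. There 153 of 19285 genes (0.793%) differed between Pdx1-high and Pdx1-low sets, and the difference of the gate differences passed for 1792 genes (9.29%). The dorsal sets enter this comparison as well as the one above. For Gcg the dorsal minus ventral gate difference was -10.37 (SE 1.98, adjusted p = 0.00114), with ventral levels of 36.52 ± 42.21 (SD, n = 5) and 31.39 ± 34.21 CPM (SD, n = 5). For Pdx1 it was 0.29 and did not pass (SE 0.96, adjusted p = 1.0). Nkx6-1, which did not pass between the dorsal gates, stood at 29.24 ± 10.73 and 0.2733 ± 0.6111 CPM in the ventral gates, and its side difference was -6.88 (SE 1.20, adjusted p = 0.000624). The ventral Pdx1-low level of Nkx6-1 was near 0, so the size of that difference is uncertain. For Hes1 the side difference was 5.00 (SE 1.05, adjusted p = 0.0029), with ventral levels of 148.6 ± 75.67 and 128.2 ± 44.25 CPM.

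Dorsal cells sorted on Ngn3-GFP at E14.5 gave a second contrast from separate samples. In bulk, fewer cells of a type and less RNA per cell cannot be told apart. Of 17690 genes, 5185 (29.3%) were higher in Ngn3-high and 5712 (32.3%) in Ngn3-low. Among 16401 genes tested at both stages, 1295 were higher in Pdx1-low at E10.5 and in Ngn3-high at E14.5, 71.2% of the 1818 E10.5 genes and 25.7% of the 5032 E14.5 genes. A further 1590 were higher in Pdx1-high and in Ngn3-low, 79.4% of 2002 and 29.3% of 5432. The opposed overlaps held 140 and 88 genes.

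**Figure D5:**
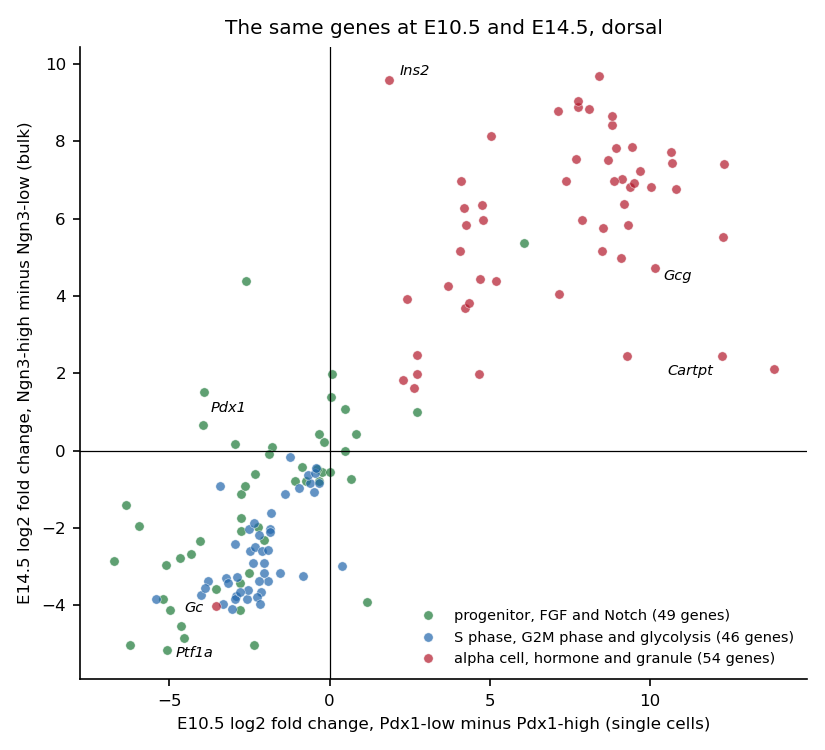
Log2 difference at E10.5 (Pdx1-low minus Pdx1-high, x axis) against the log2 difference at E14.5 (Ngn3-high minus Ngn3-low, y axis), 1 point per gene of 3 bundles of lists, coloured by bundle, with 6 genes named. Most alpha cell, hormone and granule genes lie above 0 on both axes, most cell cycle and glycolysis genes lie below 0 on both, and Pdx1 lies below 0 at E10.5 and above 0 at E14.5.

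Members of the lists moved alike or apart at the later stage. All 28 tested granule genes and 15 of 15 hormone genes were higher in Ngn3-high, and 16 of 16 S phase and 16 of 16 G2 and M phase genes were higher in Ngn3-low. Gcg stood at 2172 and 2238 CPM in the Ngn3-high libraries and 27.75 and 137.8 CPM in the Ngn3-low libraries (4.74, SE 0.68, adjusted p = 2.93e-05). Ins2, which did not pass at E10.5, stood at 931.1 and 1064 against 0.6194 and 1.941 CPM (9.60, adjusted p = 3.18e-12). Pdx1, whose transgene set the E10.5 gate, was among the opposed genes. It was higher in Pdx1-high at E10.5 and higher in Ngn3-high at E14.5, at 450.0 and 466.5 against 165.9 and 152.4 CPM (1.53, SE 0.09, adjusted p = 1.66e-09). Nnat, an imprinted gene of neuroendocrine cells, also was higher in Pdx1-high (2.15) and in Ngn3-high (4.70). Gal stood at 1.512 and 1.834 CPM in Ngn3-high and at 151.7 ± 56.82 CPM (SD, n = 6) in the E10.5 Pdx1-low sets, values from separately scaled tables that are given side by side. Neurog3, which did not pass at E10.5, stood at 860.3 and 943.5 against 98.36 and 149.4 CPM (2.86, SE 0.17, adjusted p = 2.93e-09). The E14.5 cells were sorted on a transgene of this gene (Ngn3), so its difference there is a check of that sort.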

How the data were processed

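The authors deposited integer read counts per gene for single cells (Smart-seq2, which marks no strand, so overlapping and antisense genes cannot be told apart) and for poly(A) bulk libraries of sorted cells. Per the submitters' processing notes, TopHat2 2.1.0, Bowtie2 and HTSeq 0.6.0 were used on GRCm38. The release of the annotation is not given in the sources used here. Both tables list 40824 genes and 92 spike-ins, and spike-ins stayed out of library sizes. No doublet caller was run. Cells were summed per labelled set, and all 38 sets of 3 or more cells in 12 groups were fitted in 1 edgeR 4.0.16 model (filterByExpr, TMM, quasi-likelihood F test, Benjamini-Hochberg adjustment at 0.05). A group of a single set in that model makes the filter on low counts lax. The 16 bulk libraries were fitted apart. A standard error (SE) is the log2 difference divided by the square root of F. Against groups with no read, folds are bounds from 3 reads over the group. With 1 to 3 reads, ratios have exact 95% counting intervals. Coordinates are GENCODE vM21, promoters RefSeq GRCm38.p6 (12679 of 19285 genes matched).

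The 2 cell groups and the gene lists were chosen with earlier results of these data known, and several lists come from earlier work on the same data. Named genes were the 10 per direction with the largest difference among called genes whose mean log2 CPM was at least 4 and whose sets did not overlap, a list of fixed genes, up to 4 called members per list by adjusted p, and any called marker of another cell type. Other list members were named after their values were seen, and results of 2 genes are not reported here. In a simulation of the Pdx1-high against Pdx1-low comparison on 19285 genes, the test found 6.0% of 50 genes changed 2-fold, 50.0% of those changed 4-fold, 80.0% at 8-fold and 88.0% at 16-fold, with 2 false calls. Counts were drawn from the dispersions of the fitted model, and genes of low level were left out of the changed genes. The rates therefore do not cover genes of low level, and the false calls do not cover effects outside the model. Alternatives were DESeq2 1.42.0, limma 3.58.1 on mean log2 values of cells, RLE scaling, no filter, a 1.5-fold test, the 2 groups alone with and without the set number as a block, other cell minimums, thinned cells, each run of sample numbers alone, and each set left out. R 4.3.3 and Python 3.11.15 were used.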

Additional observations from a re-analysis of the deposited data

Results flagged for a closer look

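Chance alone would put 1 sample far from the others in about 1 in 20 groups, and 60 groups were examined. In the Pdx1-low sets, Gcg in set 2 (22486 CPM) lay far below the other 5. Set 2 held 3 cells, 1 of which had 553.8 CPM of Gcg. In the Pdx1-high sets, Neurog3 in set 4 (216.6 CPM) lay far above the others, in the set that held the cell with 824.9 CPM. Ptf1a in Pdx1-low set 4 (13.56 CPM) was the only Pdx1-low set value above 0, in the set with the cell that carried Pdx1 and Sox9. Gjb1 in Pdx1-high set 6 (5.273 CPM) lay below the other 4 sets.

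The gate difference itself differed between the dorsal and ventral sides by a contrast of the edgeR model for 1792 genes. Among the fixed genes named here, the dorsal minus ventral difference on the log2 scale was -10.37 for Gcg, -8.15 for Isl1, -10.36 for Neurod1, -8.24 for Pyy and -7.01 for Ins1. It was -6.88 for Nkx6-1, -6.65 for Mnx1 and -5.90 for Sim1, and 5.00 for Hes1. Sim1 (means of 0.6751 and 0 CPM) and Neurod1 (0.1767 and 0.358 CPM) were near 0 in both ventral gates, as Mnx1 was in ventral Pdx1-low (0.01242 CPM), so these fitted values depend on the prior count and give no size of the difference. Nkx6-1 was also near 0 in ventral Pdx1-low, with 1 of 39 cells at 10 CPM, so the size of its difference is uncertain.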

How the results depend on the processing

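The main test called 3972 genes. The count was 2270 in the 2 groups alone, 1394 with the set number as a replicate block there, 2508 against a 1.5-fold change, 1156 in sets 1 to 3 and 491 in sets 4 to 6. Fewer sets and genes entered all of these but the 1.5-fold test. It ranged from 3269 to 4018 with each set left out and was 4748 with DESeq2, 2798 with limma and 4072 with RLE scaling. No gene called in both the main test and the 2 groups alone, the block, DESeq2, either run or the fit without the cell against its gate changed direction. Gene levels of same-numbered sets did not deviate together (correlations of -0.101 to 0.0418). With so few small sets, this does not settle whether the numbers pair the samples. The main test did not pair them, and the block did. Reads on genes per spike-in read were 9.814 to 13.76 in sets 1 and 4 of both gates and 26.14 to 53.05 in the other sets tested. This measure thus followed the set number, which its permutation test did not take into account. Of 111 called named genes, 102 to 110 kept the call with a set left out, 87 with limma, and 74 of 101 tested under the block. Within sets 1 to 3 the call was kept by 68 of 105 tested, and within sets 4 to 6 by 54 of 101. Many named genes were picked by the main test itself, which favours a kept call. The side difference gave 1792 genes, 494 with a replicate block within side and 1112 against a 1.5-fold change (1406 to 2001 with a set left out). The E14.5 count was 10897, 6618 against a 1.5-fold change and 9169 to 9686 with a library left out. Genes detected in 100000 reads differed by -564.3 to -368.8 with a set left out. Signs turned, without a passed test, for Neurog3 (-1.36 in sets 1 to 3, -0.35 without Pdx1-high set 4 to 4.60 without Pdx1-low set 3), Nkx6-1 (0.11 with limma), Sim1 (-0.28 in sets 4 to 6, -0.17 to 0.26 with a set left out) and Cdkn1c (-0.08 in sets 1 to 3, -0.16 to 1.12 with a set left out). Depth limits reading of genes near 1 read.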

Other observations

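Dorsal cells at E10.5 that were sorted as Pdx1+ without a split by level held both kinds of cell. Of these 27 cells, 16 had Sox9 at 100 CPM without Gcg at 1000 CPM, 9 had Gcg alone, 1 had both and 1 had neither. The split followed the set, with Gcg alone in 3 of 11 cells of set 1, 0 of 10 of set 2 and 6 of 6 of set 3. With sets left out, an alternative chosen after seeing the data, Gcg alone was found in 3 of 21 cells (14.3%) without set 3 and in 9 of 17 (52.9%) without set 2, against 33.3% of all 27 cells. No cell of the Pdx1-high or Pdx1-low gates had both at these limits, although 12 of 40 Pdx1-low cells had Sox9 at 10 CPM. The lowest Gcg above the limit was 2016 CPM in the Pdx1+ cells and 9866 CPM in the Pdx1-low cells. A Pdx1+ cell had a median of 2 hormone genes at 10 CPM (0 to 11), between the medians of 1 in Pdx1-high and 10 in Pdx1-low cells. Neurog3 reached 10 CPM in 6 of the 27, all 6 with Sox9 and Hes1 at that level, and 3 of the 6 had Neurod1 at 10 CPM, against 0 of 15 in the Pdx1-high gate. These shares were not tested against each other.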
